A study of Homo sapiens with 33 samples.

Results

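The transcripts of 6 DNA mismatch repair genes (MSH6, MSH3, PMS2, PMS1, MLH3 and EXO1) were followed by mRNA sequencing in high-grade serous ovarian carcinoma cell lines, to see whether any of them was lost or reduced in lines that had become resistant to platinum. The genes were taken by symbol from a table of 29744 genes, and all 6 were detected in all 33 libraries. The libraries covered 11 lines with 3 replicates each, in 4 families. The cisplatin-sensitive lines were OVCAR3, OVCAR4, PEA1 and PEO1. Their resistant relatives were OVCAR3 ResA and OVCAR3 ResB, OVCAR4 ResA and OVCAR4 ResB, PEA2, and PEO4 and PEO6, which gave 7 resistant-sensitive pairs. The ResA and ResB lines were raised in culture by repeated short pulses of cisplatin at rising doses and were then kept without the drug, while PEA2, PEO4 and PEO6 came from the same patients as PEA1 and PEO1. No library was made from cells under treatment, each line stands for a single cell population, and roles follow the study's own description, the titles giving line and replicate alone.

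Mismatch repair removes bases that the replication machinery paired wrongly, together with small loops left by slippage. MSH6 and MSH3 each join a common partner to form the complexes that find the error, the MSH6 complex mainly for single mispairs and the MSH3 complex mainly for loops. PMS2, PMS1 and MLH3 are partners of a common MutL protein, of which the PMS2 complex cuts the new strand and the MLH3 complex also acts in meiosis. EXO1 is the exonuclease that removes the stretch holding the error. Loss of mismatch repair is a known route to cisplatin tolerance in cultured cells, since the pathway takes part in signalling from platinum adducts.

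Sequencing depth ranged from 18058985 to 43394009 counts per library, with a median of 30611448. The labelled cell type was checked with 8 epithelial and Müllerian markers, whose summed level was lowest in PEA1 (429 ± 21.9 TPM, SD, n = 3) and reached 7393 TPM elsewhere. MUC16 was nearly absent from PEA1 (0.0696 ± 0.0422 TPM, SD, n = 3), and the mean of WT1, a nuclear marker of serous carcinoma, was under 1 TPM in OVCAR4 and OVCAR4 ResB. Summed markers of leukocytes, fibroblasts and endothelium did not exceed 54.8, 106 and 14.4 TPM in any library, but they differed within several pairs, among them the PEA pair. The endothelial sum was 0.35 ± 0.17 TPM in OVCAR3 and 7.20 ± 6.30 TPM in OVCAR3 ResB. The leukocyte sum was 28.9 ± 2.83 TPM in PEO1 and 10.3 ± 1.72 TPM in PEO6. The fibroblast sum was 4.29 ± 0.56 TPM in OVCAR4 and 21.6 ± 11.3 TPM in OVCAR4 ResA. The share of counts on the mitochondrial ribosomal RNAs, which poly(A) selection should keep low, varied from 1.12% to 14.8%. It separated libraries of the same line, most widely in the OVCAR4 family and in OVCAR3 ResB, but also in OVCAR3, OVCAR3 ResA and PEA1. It is given below beside EXO1 and PMS2, but other members varied with it too. In each of these lines the library with the highest share had the least MSH6. In OVCAR3 ResB, MSH6 was 62.8, 41.9 and 92.8 TPM at shares of 5.97%, 8.88% and 1.12%. The same held for MSH3 except in OVCAR4, and for PMS1 and MLH3 in some of these lines only. For MSH6 it did not hold in PEO1, PEA2 or PEO6. The part of the share in the changes of these members was not tested. The labels do not say whether the 3 replicates of a line came from separate cultures, so the p-values measure the spread between these libraries.

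No member was lost. The lowest estimated count of any member in any library was 181, for PMS2, where loss had been set at 3 counts or fewer in all 3 libraries of a line. The lowest counts of the other members were 205 for EXO1, 231 for MLH3, 305 for PMS1, 389 for MSH3 and 2075 for MSH6. A member was counted as reduced where its mean in a resistant line fell under 25% of the mean in the sensitive line. EXO1 in PEO6 was the only such case among the 42 combinations of member and pair, at 17.2% of the PEO1 level. Under 50% there were 2 further cases, EXO1 in PEO4 at 35.6% and EXO1 in PEA2 at 46.3%. Measured on normalised counts, which correct for depth and composition but not for length, PEA2 was no longer among them.

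Levels are given in TPM, which divides counts by transcript length and scales each library to 1 sum, so that genes can be set side by side. MSH6 was the most abundant member in every line, with line means from 55.0 TPM in OVCAR4 to 104 TPM in PEO1. Line means of MLH3 lay between 6.94 and 15.1 TPM, of MSH3 between 7.36 and 17.9 TPM, of PMS1 between 8.89 and 22.3 TPM, and of PMS2 between 8.56 and 21.0 TPM. These 5 genes varied 1.90- to 2.50-fold from the lowest to the highest line. EXO1 varied 5.85-fold, from 6.46 TPM in PEO6 to 37.8 TPM in PEA1.

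**Figure D1:**
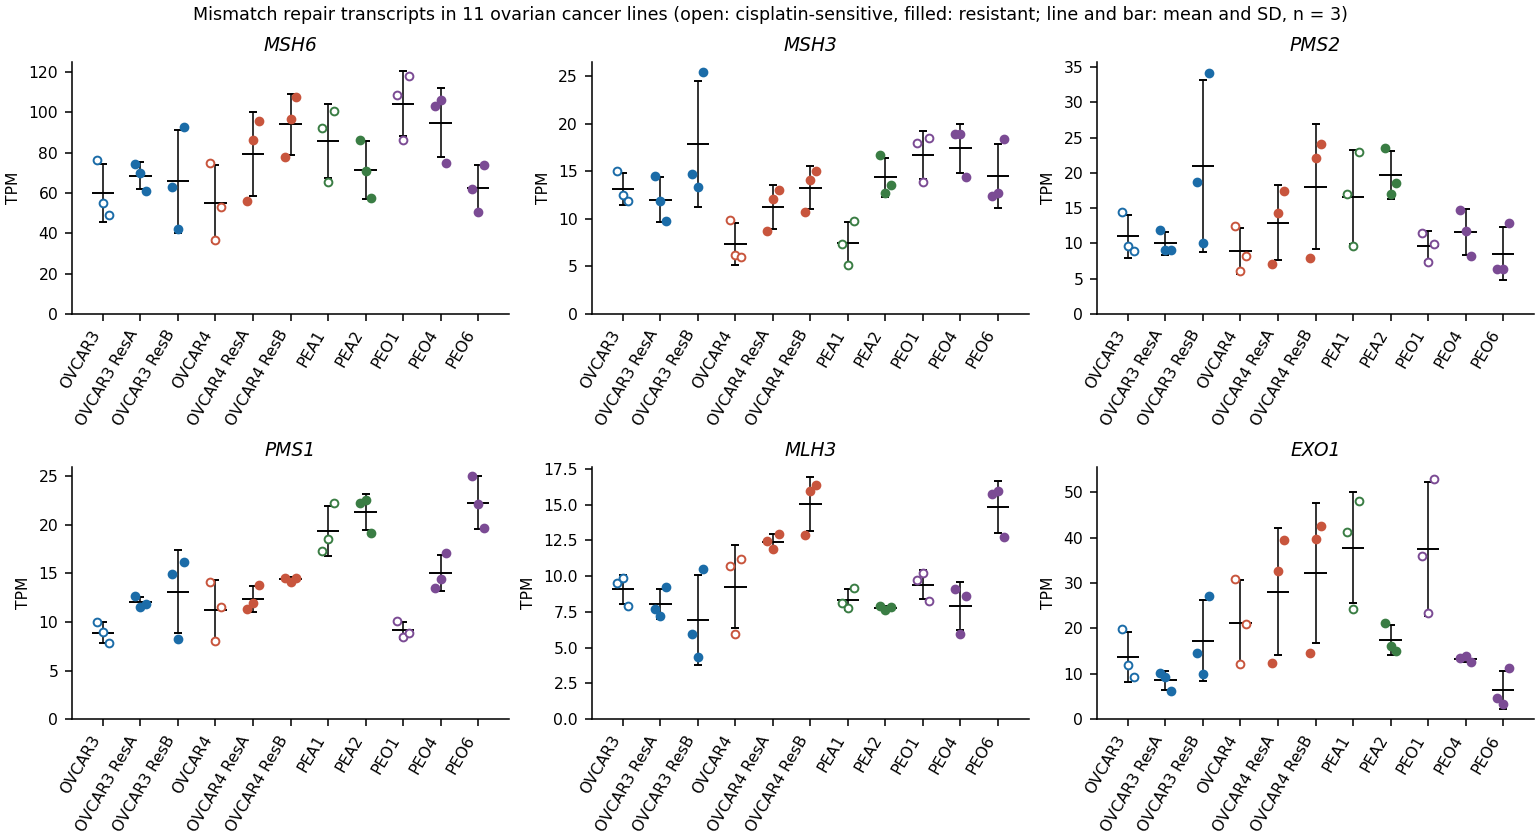
Level of each mismatch repair gene (TPM, linear axis from 0) in 11 lines; each point is a library, open for cisplatin-sensitive and filled for resistant lines, coloured by family, with a horizontal line at the mean and a bar of 1 SD (n = 3). MSH6 lies above the other genes throughout, and EXO1 has the widest range, with PEO6 lowest at 6.46 TPM.

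Within each gene, lines that were neighbours in the order of the means mostly could not be separated. For MSH3, MSH6 and PMS2 the 3 libraries of every line overlapped those of the next line down the order. The MLH3 order had 1 gap, below OVCAR4 ResB, PEO6 and OVCAR4 ResA. The PMS1 order had 1 gap, below PEO6, PEA2 and PEA1, and the EXO1 order had 1 gap, between PEO4 and OVCAR3 ResA.

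In the comparison of each resistant line with its sensitive relative, 8 of 42 combinations passed the test (DESeq2, adjusted p under 0.05), of which 5 were lower and 3 higher in the resistant line. They fell on 4 genes: EXO1 was lower in OVCAR3 ResA, PEA2, PEO4 and PEO6, MSH6 was lower in PEO6, PMS1 was higher in PEO4 and PEO6, and MSH3 was higher in PEA2. MLH3 and PMS2 did not pass in any pair. These counts stand against broad changes in the same lines. In OVCAR3 ResA 1 of 6 members passed, where 44.9% of all tested genes did. In PEA2 it was 2 of 6 against 47.0%, in PEO4 2 of 6 against 33.3% and in PEO6 3 of 6 against 41.4%. With only 6 members, the shares were thus near or below those of all genes in each of these lines.

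No member passed in OVCAR3 ResB, OVCAR4 ResA or OVCAR4 ResB, where 7.67%, 11.9% and 17.9% of all tested genes did. Those shares were 4.10% higher and 3.57% lower in OVCAR3 ResB, 6.68% and 5.22% in OVCAR4 ResA, and 9.09% and 8.77% in OVCAR4 ResB. At an unadjusted p under 0.05 DESeq2 gave 1 member in OVCAR3 ResB, PMS2, and 0 in the OVCAR4 pairs, and edgeR and limma also called 0 members in each of these 3 pairs. The intervals here were wide. For EXO1 the 95% interval of the log2 fold change ran from -1.01 to 0.70 in OVCAR4 ResA and from -0.83 to 0.85 in OVCAR4 ResB. These intervals leave out the EXO1 changes of PEO4 and PEO6 given below, and they hold changes of the size fitted in OVCAR3 ResA in the same direction.

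**Figure D2:**
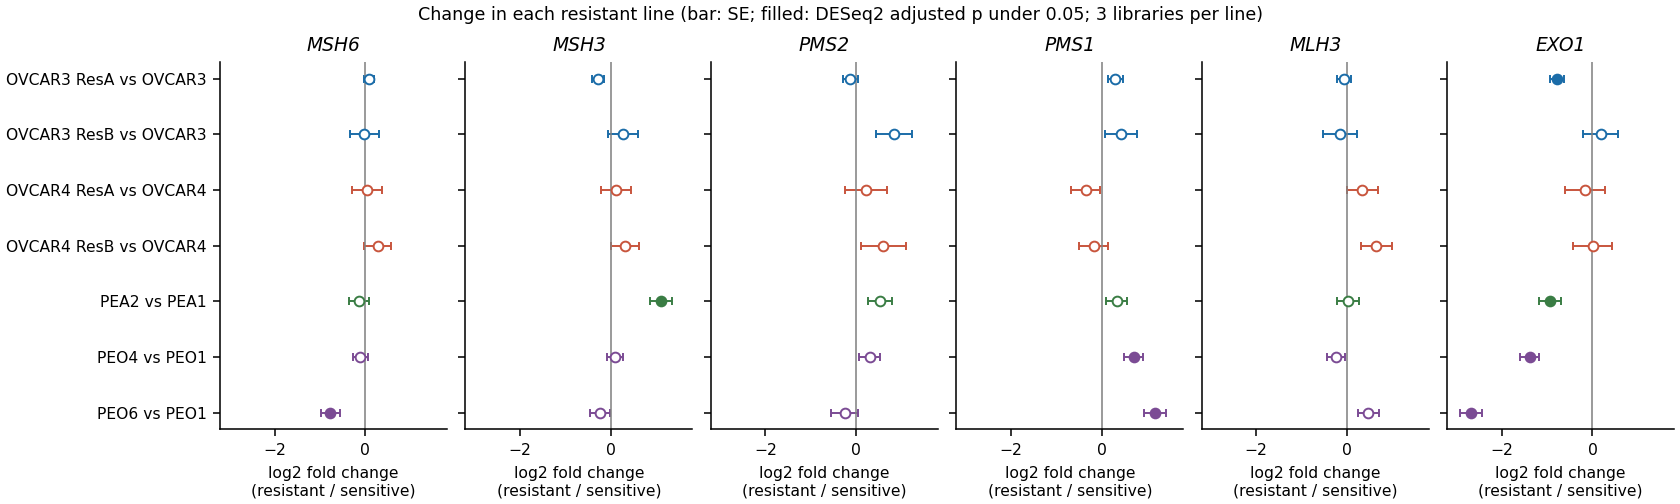
Log2 fold change of each member in the 7 resistant-sensitive pairs (horizontal axis, resistant over sensitive; bar of 1 SE; 3 libraries per line), filled where the DESeq2 adjusted p was under 0.05. The 4 filled EXO1 points lie left of 0, with PEO6 farthest at -2.67, and the filled PMS1 and MSH3 points lie right of 0.

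EXO1 showed the largest fitted change of the 6 genes. In bulk RNA, fewer cells expressing a gene and less of its RNA per cell cannot be told apart. In PEO1 its level was 36.0, 23.5 and 53.0 TPM in replicates 1 to 3, in PEO4 it was 13.5, 13.97 and 12.5 TPM, and in PEO6 it was 4.65, 3.42 and 11.3 TPM. The 3 lines did not overlap, with PEO1 highest and PEO6 lowest. The log2 fold change was -1.38 ± 0.21 (SE) in PEO4 (adjusted p = 7.0e-10) and -2.67 ± 0.24 in PEO6 (adjusted p = 1.0e-26), that is 2.60- and 6.38-fold lower than in PEO1, which served as the reference for both. PEO6 was also lower than PEO4 (-1.30 ± 0.37, adjusted p = 0.0041), in a comparison where 1 of 6 members passed and 18.2% of all tested genes did (9.86% higher, 8.33% lower). Without replicate 2 this last difference was -0.92 with an adjusted p of 0.47, and without replicate 1 the adjusted p was 0.11.

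EXO1 also fell in PEA2 and OVCAR3 ResA. PEA1 held 41.3, 24.2 and 48.0 TPM and PEA2 held 21.3, 16.1 and 15.1 TPM, with no overlap, for a log2 fold change of -0.94 ± 0.24 (adjusted p = 0.00039). The adjusted p was 0.052 without replicate 1. The mitochondrial ribosomal RNA share was 4.02%, 7.62% and 3.59% in PEA1 and 2.93%, 2.78% and 2.74% in PEA2. Within PEA1, EXO1 was lower where the share was higher. OVCAR3 held 19.8, 12.01 and 9.32 TPM and OVCAR3 ResA held 10.2, 9.25 and 6.13 TPM. These libraries overlapped as groups, but each OVCAR3 ResA library was below the OVCAR3 library of the same number, and the change was -0.78 ± 0.15 (adjusted p = 2.4e-06). In this pair same-numbered libraries deviated together in all 3 numbers. The mitochondrial ribosomal RNA share was 2.39%, 4.93% and 7.52% in OVCAR3 and 1.86%, 3.79% and 5.57% in OVCAR3 ResA. Within both lines EXO1 was lower where the share was higher. The adjusted p was 0.072 when all 33 libraries shared 1 fit. In that fit neither change differed from that of PEO4 beyond its error (PEA2 minus PEO4 0.47, adjusted p = 0.49, and OVCAR3 ResA minus PEO4 0.59, adjusted p = 0.40).

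The OVCAR4 family and OVCAR3 ResB showed how far EXO1 moved between replicates of 1 line. OVCAR4 ResA held 12.4, 32.6 and 39.4 TPM, and the mitochondrial ribosomal RNA share of the same libraries was 9.23%, 2.02% and 2.09%. OVCAR4 ResB held 14.6, 39.7 and 42.6 TPM, with shares of 13.1%, 2.47% and 2.39%. OVCAR4 itself held 30.8, 12.2 and 20.9 TPM, with shares of 5.18%, 14.8% and 11.96%. In each of these lines the library with the most mitochondrial ribosomal RNA had the least EXO1. In OVCAR3 ResB the library with the lowest share of all 33, replicate 3 at 1.12%, had the most EXO1 of its line, 27.2 TPM against 14.6 and 9.98 TPM. The part of this share in the EXO1 differences was not tested, but the call count depended on it: with the share as a covariate in place of the replicate number, 13 combinations passed, of which 7 were among the 8 given above. Calls among all tested genes moved too with this covariate. They rose from 1784 to 4488 in OVCAR4 ResA, from 2853 to 6513 in OVCAR4 ResB and from 1255 to 3407 in OVCAR3 ResB. They fell from 6962 to 3434 in PEO6 and moved less in the remaining pairs. EXO1 in the OVCAR4 family then passed as lower, at -1.01 in OVCAR4 ResA (adjusted p = 0.00017) and -0.54 in OVCAR4 ResB (adjusted p = 0.020). Leaving out replicate 1 of both lines gave the opposite call in OVCAR4 ResB, 0.55 with an adjusted p of 0.022, so no direction can be given for EXO1 in that pair.

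EXO1 is a gene of proliferating cells, and its level followed that of 15 S phase genes. Across the 33 libraries Pearson's r between the log2(TPM + 1) of EXO1 and the summed level of these genes was 0.87, and across the 11 line means it was 0.84. Libraries share depth, composition and line, so these values are descriptions. The same r across line means was 0.75 for MSH6 and 0.57 for PMS2, and it lay between -0.17 and 0.18 for MSH3, MLH3 and PMS1. MSH6 and EXO1 also had the highest r of any 2 members over the 11 lines, 0.56. The S phase sum, like EXO1, varied with the mitochondrial ribosomal RNA share between replicates. In OVCAR3 ResB the sum was 763, 702 and 1538 TPM at shares of 5.97%, 8.88% and 1.12%. In OVCAR4 it was 1253, 651 and 804 TPM at 5.18%, 14.8% and 11.96%. In PEA2, PEO1 and PEO6 the library with the highest share did not have the lowest sum. The part of the share in these r values was not tested.

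**Figure D3:**
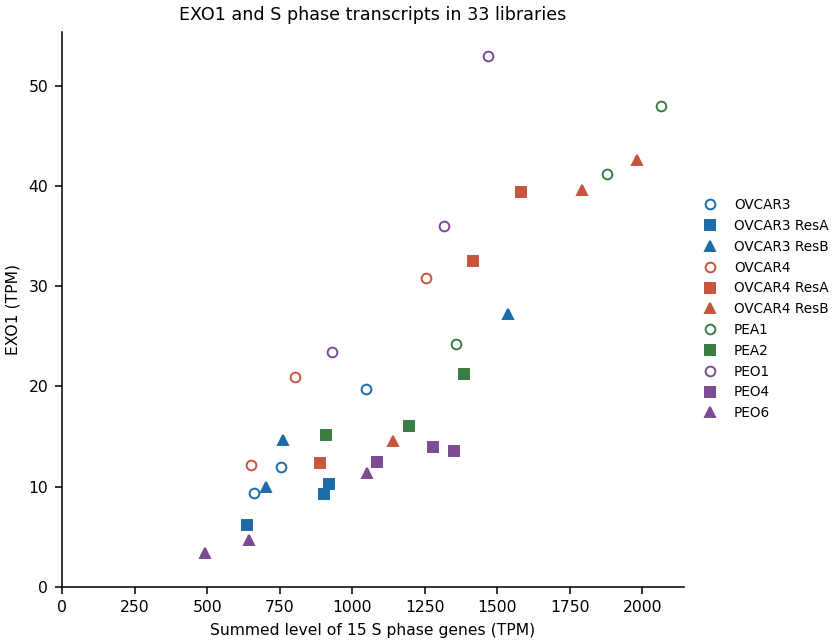
EXO1 level against the summed level of 15 S phase genes (both TPM) in 33 libraries, coloured by family and marked by line, open for sensitive lines. The points rise together (r = 0.87 on the log2 scale), and the 3 filled PEO4 points, at 12.5 to 13.97 TPM, lie below the open PEO1 points, at 23.5 to 53.0 TPM.

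The S phase genes moved with EXO1 in some pairs and not in others. In PEO6 11 of the 15 were lower than in PEO1 and 0 higher, with a median log2 fold change of -0.96 beside 0.02 for all tested genes, of which 20.3% were lower. In OVCAR3 ResA 8 were lower and 3 higher (median -0.29), where 22.9% of all tested genes were lower and 44.9% passed in either direction. In PEO4 2 were lower and 1 higher, with a median of -0.06, beside 16.7% and 16.6% of all tested genes, while EXO1 was 2.60-fold lower. In PEA2 3 were lower and 4 higher (median -0.05), where 23.8% of all tested genes were lower and 23.3% higher. The largest decrease in the list was that of TYMS, thymidylate synthase, in PEA2 (-2.32 ± 0.22, adjusted p = 2.1e-24), and the largest increase was that of CCNE2, a cyclin of S phase entry, in OVCAR4 ResB (1.22 ± 0.41, adjusted p = 0.020). No gene of the list passed in the same direction in 5 or more pairs.

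The position of EXO1 on chromosome 1 (RefSeq GRCh38.p14, chr1:241847986-241889939, plus strand) gave a further description. Of the 23 other tested genes centred within 5 Mb on either side, 17 were lower and 1 higher in PEO4 than in PEO1, and their median log2 fold change was -1.42, close to the -1.38 of EXO1. In PEO6 17 of 22 such genes were lower and 1 higher, with a median of -1.40, and EXO1 was below 15 of them. Among all tested genes 16.7% were lower in PEO4 and 20.3% in PEO6. Both comparisons use the PEO1 libraries. The median moved with the width of the window, to -1.93 and -4.03 within 2 Mb and to -0.90 and -1.11 within 10 Mb. In PEA2 the genes around EXO1 had a median of 0.07, and 1 of 24 had a lower value than EXO1. In OVCAR3 ResA the median was -0.13, and 6 of 25 had a lower value than EXO1. The sign of the median depended on the window in both, at 0.62 and 0.08 within 2 Mb and -0.49 and -0.46 within 10 Mb. These windows were drawn after the values had been seen, neighbouring genes are not independent, and the libraries measure RNA only.

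**Figure D4:**
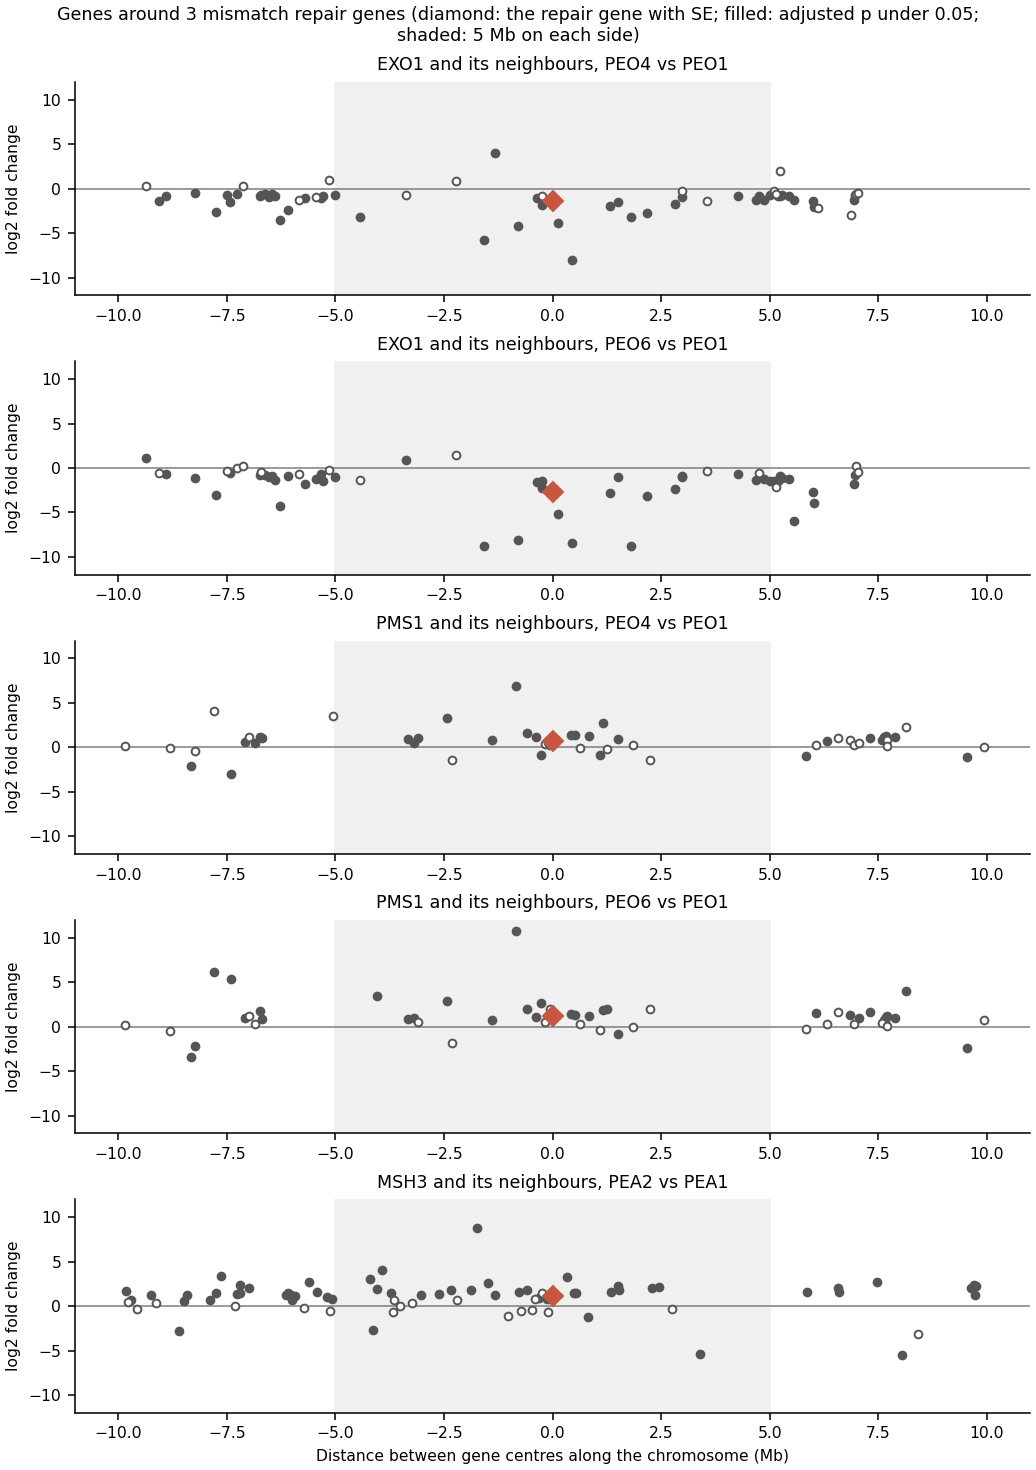
Log2 fold change (vertical axis) of tested genes by distance in Mb from the centre of EXO1, PMS1 or MSH3 (horizontal axis), for EXO1 and PMS1 in PEO4 and PEO6 against PEO1 and for MSH3 in PEA2 against PEA1; circles are filled where the adjusted p was under 0.05, the diamond is the repair gene with its SE, and the shading covers 5 Mb on each side. Points around EXO1 in PEO4 and PEO6 lie mostly below 0, and those around PMS1 in PEO6 and around MSH3 in PEA2 mostly above it.

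MSH3 and MSH6, which compete for the same partner, changed in different lines. MSH3 was 7.35, 5.16 and 9.74 TPM in PEA1 and 16.7, 12.8 and 13.6 TPM in PEA2. The groups were apart, and the log2 fold change was 1.11 ± 0.24 (adjusted p = 2.1e-05), 2.16-fold higher in PEA2. Cell type markers also differed in this pair. The 8 epithelial and Müllerian markers summed to 429 ± 21.9 TPM in PEA1 and 3744 ± 119 TPM in PEA2, and markers of other cell types differed too. The 5 fibroblast markers summed to 88.4 ± 20.3 TPM in PEA1 and 0.94 ± 0.26 TPM in PEA2, nearly all of it COL1A1, with DCN at 0 in both lines. The 5 leukocyte markers summed to 18.9 ± 7.42 and 53.3 ± 1.40 TPM, mostly CD68, with PTPRC at 0 in PEA1 and 3.30 ± 0.24 TPM in PEA2. The 3 endothelial markers summed to 0.068 ± 0.049 and 7.37 ± 1.56 TPM, mostly CDH5. Their part in the MSH3 and EXO1 changes and the MSH6 to MSH3 ratio of this pair was not tested. MSH6 in the same pair was 92.1, 65.4 and 101 TPM against 86.2, 70.9 and 57.6 TPM, overlapping, with a change of -0.14 ± 0.23 (adjusted p = 0.65). In PEO6 MSH6 was 62.2, 50.5 and 74.2 TPM where PEO1 held 109, 86.5 and 118 TPM, which did not overlap, and it was 1.71-fold lower (-0.77 ± 0.21, adjusted p = 0.0012). That call was lost without replicate 2 (-0.67, adjusted p = 0.082) and with mitochondrial ribosomal RNA as the covariate (-0.78, adjusted p = 0.087). MSH3 in PEO6 did not pass (-0.24 ± 0.22, adjusted p = 0.42). Around MSH6 in PEO6, 8 of 30 other genes within 5 Mb were lower and 5 higher, with a median of -0.24.

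Relative to its mean, the ratio of MSH6 to MSH3 within a library varied less between replicates than either level in most lines. In PEO1 it was 6.06, 6.24 and 6.40, and in OVCAR4 ResB 7.25, 6.86 and 7.15, although MSH6 alone ranged from 77.8 to 108 TPM in the latter. In OVCAR3 ResA the ratio, at 5.15, 5.92 and 6.25, varied about as much as MSH6, at 74.5, 70.1 and 61.3 TPM. It varied less there than MSH3, at 14.5, 11.8 and 9.80 TPM. PEA1 stood apart from the other lines with 12.5, 12.7 and 10.3. Its relative PEA2 had 5.16, 5.56 and 4.24, so the line means were 11.8 ± 1.31 and 4.99 ± 0.68 (SD, n = 3). In the PEO family the ratio was 6.23 ± 0.17 in PEO1, 5.44 ± 0.21 in PEO4 and 4.33 ± 0.59 in PEO6, with no overlap between these lines. In the OVCAR3 family OVCAR3 ResA was higher (5.78 ± 0.56) and OVCAR3 ResB mostly lower (3.68 ± 0.55) than OVCAR3 (4.53 ± 0.49), and in the OVCAR4 family the 3 lines overlapped. No test was run on the ratio.

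**Figure D5:**
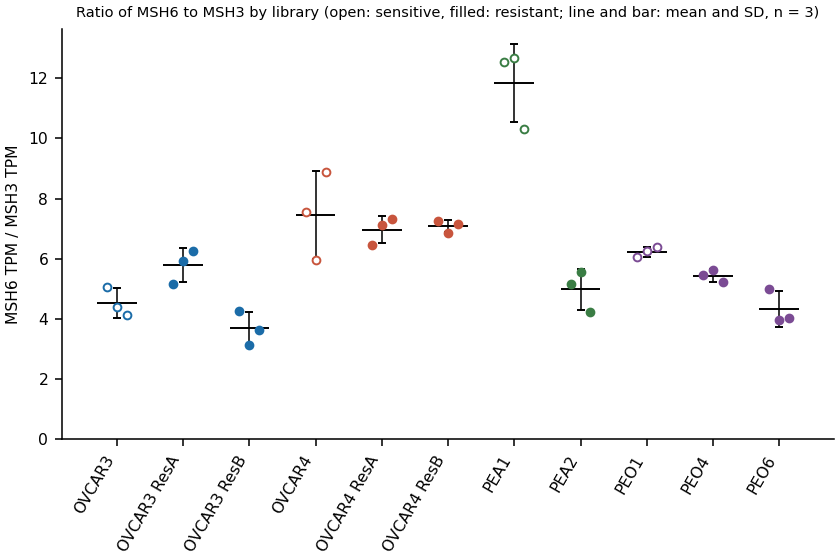
Ratio of MSH6 TPM to MSH3 TPM in each library (vertical axis, from 0) by line; open points are sensitive and filled points resistant lines, with the mean and 1 SD (n = 3). PEA1 lies above all other lines at 11.8 ± 1.31, and the remaining means lie between 3.68 and 7.46.

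MSH3 (chr5:80654652-80876815, plus strand, GRCh38.p14) did not pass in OVCAR3 ResA, where its log2 fold change was -0.28 ± 0.13 with an adjusted p of 0.068. MSH3 passed there with edgeR (adjusted p = 0.026), with a filter on low counts (0.046) and with the mitochondrial ribosomal RNA covariate (0.019). Around MSH3 in PEA2, 24 of 39 other genes within 5 Mb were higher and 3 lower, with a median log2 fold change of 1.33, while 23.3% of all tested genes were higher. MSH3 itself, at 1.11, lay above 16 of them.

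PMS1 rose in both resistant PEO lines. It held 10.1, 8.42 and 8.89 TPM in PEO1, 13.5, 14.4 and 17.1 TPM in PEO4, and 25.03, 22.1 and 19.7 TPM in PEO6. The 3 lines did not overlap and stood in the reverse order of EXO1. The log2 fold change was 0.70 ± 0.21 in PEO4 (adjusted p = 0.0034, 1.63-fold) and 1.18 ± 0.24 in PEO6 (adjusted p = 5.2e-06, 2.26-fold). In PEO4 the adjusted p was 0.052 without replicate 1 and 0.074 without replicate 2. PEO6 against PEO4 gave 0.47 ± 0.32 (adjusted p = 0.33). This difference passed with all 33 libraries in 1 fit (0.52, DESeq2 adjusted p = 0.0022) and with the mitochondrial ribosomal RNA covariate (0.58, adjusted p = 0.015). In OVCAR3 ResA the PMS1 libraries were also apart from those of OVCAR3 (11.5 to 12.7 against 7.80 to 9.95 TPM), with 0.30 ± 0.16 and an adjusted p of 0.11. It passed there with edgeR (adjusted p = 0.044) and with limma on log2(TPM + 1) (0.40, adjusted p = 0.014), a scale on which the median of all tested genes stood at 0.14 in that pair. PMS1 in OVCAR3 ResB was 0.42 ± 0.35 (DESeq2 adjusted p = 0.66) and passed with all 33 libraries in 1 fit (0.41, adjusted p = 0.037).

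PMS1 lies on chromosome 2 (chr2:189784450-189877629, plus strand, GRCh38.p14) head to head with ORMDL1, a regulator of sphingolipid synthesis, with 110 bases between the annotated spans. ORMDL1 rose along with it, by 0.64 ± 0.20 in PEO4 (adjusted p = 0.0053) and 1.29 ± 0.27 in PEO6 (adjusted p = 1.4e-05). The pair did not move together everywhere: in OVCAR3 ResA ORMDL1 was lower (-0.38 ± 0.12, adjusted p = 0.0054). Within 5 Mb of PMS1, 14 of 25 other genes were higher and 2 lower in PEO4, with a median of 0.64, and 17 of 26 were higher and 1 lower in PEO6, with a median of 1.23. Among all tested genes 16.6% were higher in PEO4 and 21.2% in PEO6. PMS1 stood close to the median of its neighbours in both lines.

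PMS2 did not pass in any pair in the main fit, but its replicates scattered widely, with an SD of up to 12.2 TPM, and some alternatives gave calls. In OVCAR3 ResB it was 18.7, 10.1 and 34.2 TPM where OVCAR3 held 14.4, 9.66 and 8.90 TPM, which overlapped (0.83 ± 0.40, adjusted p = 0.25). The mitochondrial ribosomal RNA shares of those OVCAR3 ResB libraries were 5.97%, 8.88% and 1.12%. With the share as a covariate PMS2 passed as higher in OVCAR3 ResB (0.77, DESeq2 adjusted p = 0.0025) and in PEO4 (0.78, adjusted p = 0.0058). Without replicate 3 it passed as higher in PEA2 (0.79, DESeq2 adjusted p = 0.020). In OVCAR4 ResB PMS2 was 7.88, 22.1 and 24.1 TPM against 12.4, 6.05 and 8.18 TPM in OVCAR4, with 0.60 ± 0.49 (adjusted p = 0.45). Without replicate 1 of OVCAR4 ResB, chosen for its composition after the data were seen, and with no replicate term, the change was 1.01 with an adjusted p of 0.00085. Leaving out replicate 1 of both lines gave 1.29 with an adjusted p of 1.1e-06, and in OVCAR4 ResA it gave 0.83 with an adjusted p of 0.0079. The OVCAR4 libraries then left had mitochondrial ribosomal RNA shares of 14.8% and 11.96%, and the resistant ones 2.02% to 2.47%. Line and share cannot be told apart in these 2 fits. With the share as a covariate PMS2 in OVCAR4 ResA passed as lower (-0.63, DESeq2 adjusted p = 0.023), so no direction can be given for it there.

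The PMS2 values are uncertain because the genome holds near-identical partial copies among which reads can be split. The table listed 6 of them (PMS2CL, PMS2L2, PMS2P1, PMS2P3, PMS2P4 and PMS2P5), and together they exceeded PMS2 in every line, with summed means from 21.1 TPM in OVCAR3 ResA to 70.2 TPM in OVCAR4 ResB. When counts of PMS2 and its copies were added up, 1 pair passed: OVCAR3 ResA was lower (-0.44, adjusted p = 0.0027), against -0.13 ± 0.16 for PMS2 alone. Of the single copies, PMS2P1, PMS2P5 and PMS2L2 were lower in that line. AIMP2, a subunit of the tRNA synthetase complex that starts 165 bases from PMS2 on the other strand, was lower there too (-0.46 ± 0.13, adjusted p = 0.0013). In the same line 32 of 63 genes within 5 Mb of PMS2 were lower and 2 higher, with a median of -0.52, where 22.9% of all tested genes were lower. PMS2 itself, on chromosome 7 (chr7:5970925-6009106, minus strand, GRCh38.p14), lay above 49 of them.

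MLH3, on chromosome 14 (chr14:75013775-75051467, minus strand), did not pass in any resistant-sensitive pair, with log2 fold changes from -0.24 to 0.64. Its libraries were nevertheless apart in 3 pairs. In PEO6 MLH3 was 15.7, 16.0 and 12.7 TPM against 9.77, 10.2 and 8.29 TPM in PEO1 (0.47 ± 0.23, adjusted p = 0.093). In OVCAR4 ResB it was 12.9, 15.9 and 16.3 TPM against 10.7, 5.94 and 11.2 TPM in OVCAR4 (0.64 ± 0.34, adjusted p = 0.19). With all 33 libraries in 1 fit these changes were 0.49 (adjusted p = 0.026) and 0.64 (adjusted p = 0.0042). TPM placed the OVCAR4 ResA and OVCAR4 ResB medians of all tested genes 0.44 and 0.48 above OVCAR4 on the log2 scale, so the gaps in TPM in that family exceed the fitted changes.

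Between resistant lines of the same family, 3 combinations of member and comparison passed. Without the replicate block 5 passed, of which 1 was among the 3. They were EXO1 (0.98, adjusted p = 0.019) and PMS2 (1.04, adjusted p = 0.04999) in OVCAR3 ResB against OVCAR3 ResA, and MLH3 (0.69, adjusted p = 0.013), MSH6 (-0.66, adjusted p = 0.017) and EXO1 in PEO6 against PEO4. Same-numbered libraries did not deviate together in all 3 numbers in either comparison. OVCAR4 ResB was higher than OVCAR4 ResA in MLH3 (0.31 ± 0.12, adjusted p = 0.034) and PMS2 (0.39 ± 0.15, adjusted p = 0.032), where 2 of 6 members and 32.8% of all tested genes passed (16.2% higher, 16.5% lower). In both genes each OVCAR4 ResB library was above the same-numbered OVCAR4 ResA library although the groups overlapped, and without the replicate term the adjusted p was 0.16 for MLH3 and 0.78 for PMS2. The MLH3 call was lost without any 1 of the replicates (adjusted p = 0.18, 0.51 and 0.22 without replicates 1, 2 and 3), and the PMS2 call without replicate 2 (0.61) or replicate 3 (0.38). The third was EXO1 in PEO6 against PEO4, given above. OVCAR3 ResB against OVCAR3 ResA had 0 calls by DESeq2 with the block, edgeR and limma, beside 13.5% of all tested genes with DESeq2 (7.47% higher, 6.04% lower), and 2 members at an unadjusted p under 0.05, PMS2 (0.96 ± 0.40, adjusted p = 0.090) and EXO1 (0.95 ± 0.39, adjusted p = 0.084). With all 33 libraries in 1 fit MSH3 (0.56, adjusted p = 0.00036), PMS2 (1.003, adjusted p = 0.039) and EXO1 (0.93, adjusted p = 0.033) passed there.

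When each line was reduced to the sum of its 3 libraries and resistant lines were compared with sensitive lines over the 4 families, no member passed with DESeq2 or edgeR, beside 0.286% of all tested genes with DESeq2 (0.130% higher, 0.155% lower). EXO1 had the largest value, -0.84 ± 0.42 with an unadjusted p of 0.043 and an adjusted p of 0.81, and it was the only member with an unadjusted p under 0.05. Without the PEO family it was -0.38 with an adjusted p of 0.81. The other members lay between -0.12 for MSH6 and 0.36 for PMS2.

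The later steps of repair use general replication factors. The list taken for them held the PCNA clamp, the RFC1 to RFC5 clamp loader and the RPA1 to RPA3 single-strand binding proteins. It also held the related RPA4, the POLD1 to POLD4 subunits of polymerase delta, and the ligase LIG1. Of the 105 combinations of these 15 genes and 7 pairs, 25 passed, 7 higher and 18 lower. PEO6 held 8 of them, all lower, with a median change of -0.56 over the list. PEO4 had 3 lower, OVCAR3 ResA 3 higher and 4 lower, and PEA2 4 higher and 3 lower, and none passed in OVCAR3 ResB, OVCAR4 ResA or OVCAR4 ResB. The share of the list that passed was 46.7% in OVCAR3 ResA against 44.9% of all tested genes, 46.7% against 47.0% in PEA2, 20% against 33.3% in PEO4 and 53.3% against 41.4% in PEO6. The largest increase was that of POLD4 in PEA2 (1.64 ± 0.27, adjusted p = 5.3e-09), and the largest decrease was that of RPA4 in OVCAR3 ResA (-3.06 ± 1.04, adjusted p = 0.0094), a transcript under 1 TPM in both lines. PCNA, which activates the PMS2 complex, was lower in PEO4 (-0.98, adjusted p = 1.8e-07) and PEO6 (-0.66, adjusted p = 0.016) and higher in OVCAR3 ResA (0.45, adjusted p = 0.00018). The count was 15 without replicate 2. The meiotic MutS genes were low: line means of MSH4 did not exceed 0.192 TPM and those of MSH5 lay between 0.298 and 3.68 TPM. MSH4 passed in PEO6, where PEO1 was listed at 0 in its 3 libraries.

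Promoter sequence was examined because EXO1 and MSH6 followed the S phase genes and because PMS1 and PMS2 each start beside another gene. The windows ran from 250 bases before to 50 after each RefSeq start (GRCh38.p14). E2F-type letters (TTTCCCGC, TTTCGCGC, TTTGCCGC or TTTGGCGC on either strand, which can overlap one another) were present in at least 1 window of 4 of the 6 members (MSH3, MSH6, PMS2 and EXO1) and of 3.99% of all 27305 genes with a window. The CCAAT box was present in 3 members (MSH6, PMS1 and PMS2) and 39.7% of all genes, and the cyclic AMP response element TGACGTCA in 2 members (PMS2 and EXO1) and 2.25%. The MLH3 window held none of these letters. A match describes letters only. The following stretches are shown 5′ to 3′ with the matched letters in capitals: 30 bases around the E2F-type match at EXO1 and at MSH6, the same around the response element of EXO1, and the whole gap between PMS1 and ORMDL1 and between PMS2 and AIMP2.
EXO1, E2F-type, chr1:241848197-241848226, plus strand: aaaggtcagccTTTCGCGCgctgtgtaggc
EXO1, response element, chr1:241848139-241848168, plus strand: gggatacgcgtTGACGTCAcatcctctggg
MSH6, E2F-type, chr2:47783137-47783166, plus strand: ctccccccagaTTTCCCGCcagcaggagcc
PMS1 and ORMDL1, CCAAT, chr2:189784340-189784449, plus strand: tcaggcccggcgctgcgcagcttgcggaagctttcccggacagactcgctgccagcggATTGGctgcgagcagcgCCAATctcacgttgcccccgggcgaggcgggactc
PMS2 and AIMP2, all 3 motifs, chr7:6009107-6009271, minus strand: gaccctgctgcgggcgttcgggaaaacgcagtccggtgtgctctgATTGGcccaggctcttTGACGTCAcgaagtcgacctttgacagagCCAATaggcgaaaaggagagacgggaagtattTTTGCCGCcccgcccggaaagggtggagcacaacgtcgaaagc

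The PMS1 gap thus holds 2 CCAAT boxes in opposite orientation, and the PMS2 gap holds 2 CCAAT boxes, 1 response element and 1 E2F-type match. MSH6, on chromosome 2 (chr2:47783145-47810101, plus strand), overlaps FBXO11 at its far end, and FBXO11 did not pass in any of the 10 comparisons.

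For each member the 2 genes with the most similar pattern over the 11 line means were taken from 14207 genes, by Pearson's r of log2(TPM + 1), as a description. For EXO1 they were B3GALNT2 (0.93), which lies 6.41 Mb away on chromosome 1, and VOPP1 (0.93). For PMS2 they were DAGLB (0.91), which lies 0.438 Mb away on chromosome 7, and PTPN1 (0.90). For PMS1 they were FKBP7 (0.92), 11.3 Mb away on chromosome 2, and TSTA3 (0.91). For MSH6 they were WDR76 (0.94) and ADM (0.92), for MSH3 NDST2 (0.93) and API5 (0.92), and for MLH3 ZNF322 (0.88) and LOC101927752 (0.88). Positions were found for 10 of these 12 genes (not for TSTA3 and LOC101927752), and 3 of the 10 were on the chromosome of their member.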

How the data were processed

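Poly(A)-selected libraries of 11 lines with 3 replicates each were sequenced by the authors and, per the study's methods, processed with the nf-core RNA-seq workflow and salmon on GRCh38. The annotation release and the strand setting are not given in the sources used here. The expected counts per gene were deposited by the authors as estimated by salmon, without normalisation. The TPM values deposited by the authors divide by transcript length and carry no depth.

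Expected counts were rounded, and the 6 libraries of each comparison were fitted in R 4.3.3 with DESeq2 1.42.0 (Wald test, median-of-ratios size factors, replicate number as a block as in the study's methods, no prior filter). Benjamini-Hochberg adjusted p under 0.05 over all genes was a call. The line-level test used sums per line with family as a covariate. Differences between pairs of different families were contrasts in 1 DESeq2 fit of 33 libraries. Alternatives were edgeR 4.0.16 quasi-likelihood (the usual first choice for counts, second here because the study used DESeq2), limma 3.58.1 on log2(TPM + 1) with a mean TPM of at least 1, with no filter, or with a pseudocount of 0.1, TMM factors, a filter of 10 counts in 3 libraries, no block, and leaving out replicates. Scripts were tested on simulated data.

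Same-numbered libraries deviated together in all 3 numbers (r above 0.1) for OVCAR3 with its ResA line (0.77, 0.35 and 0.55) and for the resistant OVCAR4 lines with each other (0.65, 0.50 and 0.54), but in no other comparison. Named genes were the 6 members, some nearest or overlapping neighbours and PMS2 copies, the 2 most similar genes per member, and, per list, the largest called increase and decrease and any gene called alike in 5 pairs. PCNA and the genes and windows of the regional description were chosen after their values were seen. The members and lists were chosen with earlier results of these data known. Positions and promoters are from RefSeq GRCh38.p14, matched by symbol, with windows for all 6 members. Intervals of counts cover counting error only. Some neighbouring genes are not reported here.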

Additional observations from a re-analysis of the deposited data

Results flagged for a closer look

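Of 108 differences between the changes of the same gene in resistant-sensitive pairs of different families, 38 had an adjusted p under 0.05 (one DESeq2 fit of 33 libraries). PMS1 held 12 of them, MSH3 9, EXO1 8, MSH6 5, MLH3 4 and PMS2 0. The share of all tested genes that passed in these contrasts is not available here. The counts are therefore not read as particular to these genes. Pairs with the same sensitive line share its libraries, so these values are not independent of one another. Each value below is the log2 fold change of the line named first, against its own sensitive relative, minus that of the line it is set against.

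For EXO1 the difference from PEO6 was 1.77 in OVCAR3 ResA, 2.70 in OVCAR3 ResB, 2.50 in OVCAR4 ResA, 2.64 in OVCAR4 ResB and 1.64 in PEA2. From PEO4 it was 1.52 in OVCAR3 ResB, 1.32 in OVCAR4 ResA and 1.46 in OVCAR4 ResB. For MSH6 only differences from PEO6 passed, at 0.80 in OVCAR3 ResA, 0.71 in OVCAR3 ResB, 0.82 in OVCAR4 ResA, 1.02 in OVCAR4 ResB and 0.61 in PEA2.

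For MSH3 the difference from PEA2 was -1.39 in OVCAR3 ResA, -0.83 in OVCAR3 ResB, -0.97 in OVCAR4 ResA and -0.78 in OVCAR4 ResB, and PEA2 exceeded PEO4 by 1.02 and PEO6 by 1.30. OVCAR3 ResB differed from PEO6 by 0.47, OVCAR4 ResB from PEO6 by 0.52 and OVCAR3 ResA from OVCAR4 ResB by -0.61.

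For PMS1 the difference from PEO6 was -0.93 in OVCAR3 ResA, -0.80 in OVCAR3 ResB, -1.54 in OVCAR4 ResA, -1.38 in OVCAR4 ResB and -0.90 in PEA2. From PEO4 it was -1.02 in OVCAR4 ResA and -0.86 in OVCAR4 ResB, and from PEA2 it was -0.65 in OVCAR4 ResA and -0.48 in OVCAR4 ResB. From OVCAR4 ResA it was 0.61 in OVCAR3 ResA and 0.75 in OVCAR3 ResB, and from OVCAR4 ResB it was 0.58 in OVCAR3 ResB. For MLH3 the passing differences all involved OVCAR4 ResB, at -0.73 for OVCAR3 ResA and -0.75 for OVCAR3 ResB against it, and at 0.64 and 0.90 for it against PEA2 and PEO4.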

How the results depend on the processing

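Of the 8 calls in the resistant-sensitive pairs, EXO1 in PEO4 and PEO6 and PMS1 in PEO6 passed under every alternative run. The count was 7 to 10 under the other tools, scalings and filters, 6 to 11 when a replicate was left out, and 13 with the mitochondrial ribosomal RNA share as a covariate, an alternative added after seeing the data. That covariate also turned EXO1 in OVCAR4 ResB to -0.54 (DESeq2 adjusted p = 0.020) and PMS2 in OVCAR4 ResA to -0.63 (adjusted p = 0.023). It took EXO1 in OVCAR4 ResA from -0.16 to -1.01 (adjusted p = 0.00017), while leaving out replicate 1 took EXO1 in OVCAR4 ResB to 0.55 (adjusted p = 0.022). The cause was not tested. Without the replicate block the count in the 7 pairs was 8, the same 8 combinations. Between resistant lines the 3 calls became 5 without the replicate block, 7 with all libraries in 1 fit, 1 with limma at either pseudocount, 0 with limma and no filter, 0 to 3 without a replicate and 11 with the covariate. The MSH3 call in PEA2 had an adjusted p of 0.054 and the PMS1 call in PEO4 one of 0.066 with limma and no filter. The count of later-step genes was 15 to 24 without a replicate. Raising the limit for a reduced member from 25% to 50% gave 3 cases in place of 1. The line-level count and the count of lost members were 0 under all alternatives run. Of 778 values of single changes under an alternative, 652 kept their direction and their side of the threshold. With 3 libraries per line, depth did not limit detection of any member, and the spread between replicates set the width of the intervals.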
